A study of Mus musculus with 2 samples.

Results

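The 10 genes described here were chosen by symbol from the 31053 genes of the deposited matrices: Hdc, Alox15, Acod1, Lrp2, Calb1, Atp6v0d2, Lpar3, Il13ra2, Calca and Coch. They encode enzymes, transport and calcium proteins, receptors and secreted proteins that are linked to the uterine lining or to implantation. The data were single-cell RNA counts from whole mouse uterus on gestational day 4, with 1 library from Mettl14 d/d mice and 1 library from Mettl14 f/f mice. Mettl14 is a subunit of the complex that methylates adenosines in mRNA, f/f denotes the floxed allele and d/d the deleted one; the labels used here give neither the Cre driver nor the number of animals per library. With 1 library per genotype, genotype and library cannot be told apart, no test between genotypes was possible, and every interval below is a 95% interval that covers counting error only.

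During the receptive phase the uterine lining is under progesterone, and the glands secrete leukaemia inhibitory factor, which acts on the luminal epithelium that meets the embryo. The luminal cells then take on a secretory and absorptive program that is brief and that the glands share only in part. Several of the genes described here are known from mouse studies as progesterone-responsive or implantation-related genes of the lining.

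RNA molecules were counted by unique molecular identifiers (UMIs), 44745031 over 6661 d/d barcodes and 55080123 over 8164 f/f barcodes; 5977 d/d cells and 7095 f/f cells were kept. Mettl14 itself was at 5.53 UMIs per 1000000 UMIs (CPM) over d/d cells and 15.5 CPM over f/f cells. The libraries shared 8 barcodes, 0 of them in epithelial cells. Epithelial cells were set by 11 epithelial markers and were 138 in d/d (2.31% of kept cells) and 159 in f/f (2.24%). Luminal and glandular cells were set by 7 luminal and 8 glandular markers, none of which is one of the 10 genes. Of the 159 f/f epithelial cells, 64 were luminal, 90 were glandular and 5 had neither panel ahead. Of the 138 d/d epithelial cells, the luminal panel was ahead in 7, the glandular panel in 77 and neither in 54, so the d/d epithelium was kept as 1 group. The summed luminal panel stood at 633 CPM in d/d epithelium, 6101 CPM in f/f luminal cells and 389 CPM in f/f glandular cells. The summed glandular panel stood at 1691 CPM in d/d epithelium, 67.7 CPM in f/f luminal cells and 7805 CPM in f/f glandular cells. Most of each f/f sum was 1 gene, Fxyd4 (5660 CPM in f/f luminal cells) or Spink1 (6825 CPM in f/f glandular cells). Ihh (182 against 134 CPM) and Gabrp (22.4 against 0) were higher in d/d epithelium than in f/f luminal cells, the other luminal markers lower. Cxcl15 (627 against 336 CPM), Sox9 (616 against 195) and Aldh1a1 (69.6 against 27.2) were higher than in f/f glandular cells, the other glandular markers lower. Of the luminal markers Wnt7a and Wnt7b were at 0 in d/d epithelium, and of the glandular markers Prss28 and Prss29 were at 0. Cell makeup and RNA level within a cell therefore both enter any value for the d/d epithelium. Median depth was 22308 UMIs per cell in d/d epithelium, 10652 in f/f luminal cells and 9266 in f/f glandular cells.

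RefSeq gives promoter windows, from 250 bases before to 50 bases after the gene start, for 7 of the 10 genes (not for Alox15, Calb1 and Atp6v0d2). The windows were searched on both strands for TGTTCT, a core motif of the progesterone and glucocorticoid receptors, for the full estrogen response element and for the STAT motif TTCNNNGAA. Only 1 match was found, a TGTTCT in the Hdc window at base 114, which is 137 bases before the start. Of all 32851 mouse windows of this length, 19.0% held TGTTCT, 0.07% the estrogen response element and 8.3% the STAT motif. The windows of 3 genes are shown, with the match in capitals: Hdc because it holds the match, Lrp2 because all 64 f/f luminal cells had it, and Coch because it had no UMI in d/d epithelium. All are GRCm38.p6 sequence and read 5′ to 3′ on the gene's own strand. The Hdc window (chr2:126618629-126618928, minus strand) lies within the GENCODE span of Hdc, the Lrp2 window (chr2:69585980-69586279, minus strand) overlaps the start of Lrp2, and the Coch window (chr12:51593091-51593390, plus strand) ends inside the start of Coch.
Hdc: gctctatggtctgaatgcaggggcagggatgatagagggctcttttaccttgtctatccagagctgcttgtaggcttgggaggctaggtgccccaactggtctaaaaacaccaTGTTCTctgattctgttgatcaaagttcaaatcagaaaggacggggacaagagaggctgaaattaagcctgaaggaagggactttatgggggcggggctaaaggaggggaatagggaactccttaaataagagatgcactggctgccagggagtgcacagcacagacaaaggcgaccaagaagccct
Lrp2: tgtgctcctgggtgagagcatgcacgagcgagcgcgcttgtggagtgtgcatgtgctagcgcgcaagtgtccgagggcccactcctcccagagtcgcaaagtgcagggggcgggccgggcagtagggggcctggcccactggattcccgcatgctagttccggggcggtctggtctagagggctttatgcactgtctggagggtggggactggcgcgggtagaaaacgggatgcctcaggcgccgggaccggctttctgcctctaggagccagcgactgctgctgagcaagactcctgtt
Coch: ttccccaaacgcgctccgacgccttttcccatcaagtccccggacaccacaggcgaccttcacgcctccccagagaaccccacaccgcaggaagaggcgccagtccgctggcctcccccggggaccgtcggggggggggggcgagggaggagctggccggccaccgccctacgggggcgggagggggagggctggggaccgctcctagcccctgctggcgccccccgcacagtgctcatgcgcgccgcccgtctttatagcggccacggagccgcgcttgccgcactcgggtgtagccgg
The absence of a match says only that these letters are not in the window.

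Of the 10 genes, 7 were present in the f/f luminal cells with at least 20 UMIs, and these 7 were Hdc, Alox15, Acod1, Lrp2, Calb1, Lpar3 and Coch. The other 3 went against the luminal label: Il13ra2 had 3 UMIs there, and Calca and Atp6v0d2 had 0 of 915475 UMIs. Il13ra2 was highest in stroma-like cells, Calca was highest in T cell-like and f/f glandular cells, and Atp6v0d2 was highest in d/d macrophage-like cells. The plot of levels in the epithelial groups shows this split.

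**Figure D1:**
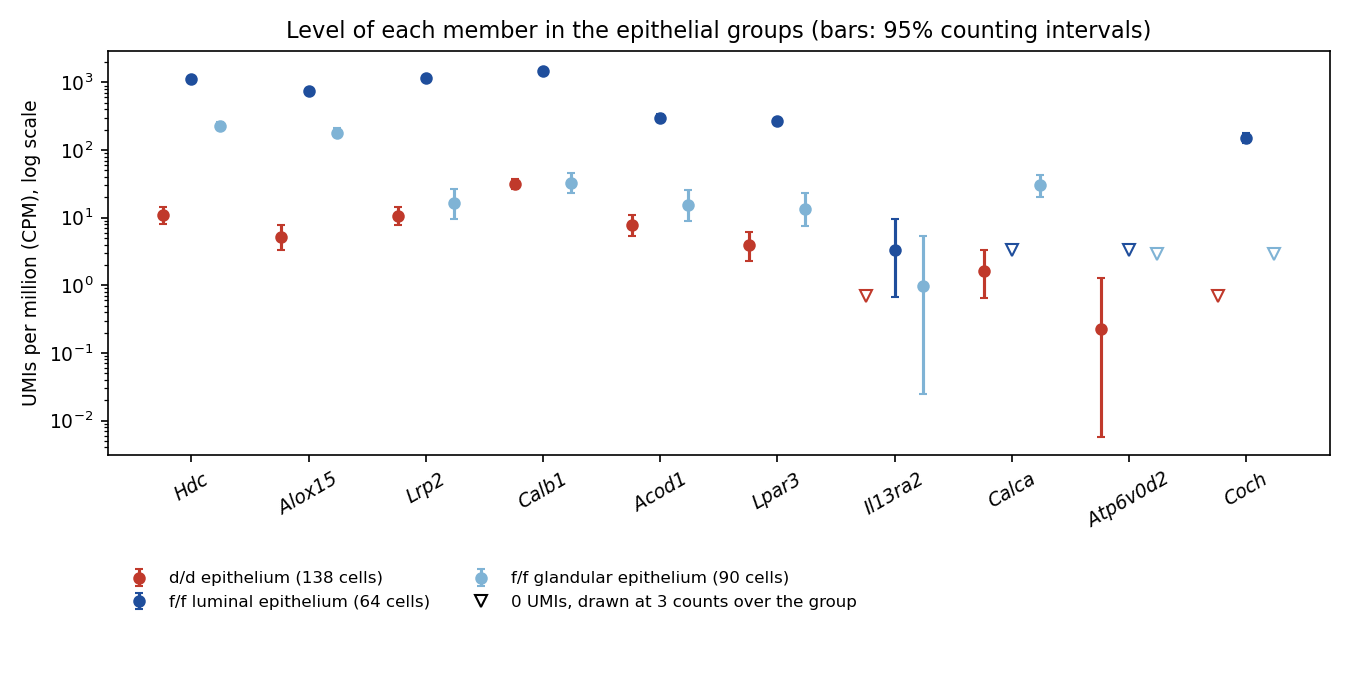
Level of the 10 genes in d/d epithelium (red, 138 cells), f/f luminal cells (dark blue, 64 cells) and f/f glandular cells (light blue, 90 cells), in CPM on a log axis, with 95% counting intervals; open triangles mark 0 UMIs and are drawn at 3 counts over the group. In total 7 genes stand highest in f/f luminal cells, from 153 CPM for Coch to 1491 CPM for Calb1, and Calca stands highest in f/f glandular cells.

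Hdc encodes histidine decarboxylase, which makes histamine. It had 48 UMIs in d/d epithelium (11.0 CPM, 8.10 to 14.6), 1027 UMIs in f/f luminal cells (1122 CPM, 1054 to 1193) and 234 UMIs in f/f glandular cells (227 CPM, 199 to 258). Its UMIs lay in 19 of 138 d/d epithelial cells, 63 of 64 f/f luminal cells and 64 of 90 f/f glandular cells. Hdc was thus 102-fold lower in d/d epithelium than in f/f luminal cells (76.5 to 139), and 20.7-fold lower than in f/f glandular cells (15.1 to 28.9). Per cell, d/d epithelium had 0.348 Hdc UMIs, f/f luminal cells 16.0 and f/f glandular cells 2.60.

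Alox15 encodes a lipoxygenase that adds oxygen to arachidonic and linoleic acid. It had 23 UMIs in d/d epithelium (5.26 CPM, 3.34 to 7.90), 691 in f/f luminal cells (755 CPM, 700 to 813) and 186 in f/f glandular cells (181 CPM, 156 to 209). A single d/d cell held 39.1% of the d/d UMIs, and 11 of 138 d/d cells had any, against 57 of 64 f/f luminal and 56 of 90 f/f glandular cells. Alox15 was 143-fold lower in d/d epithelium than in f/f luminal cells (94.8 to 228) and 34.3-fold lower than in f/f glandular cells (22.2 to 55.5). Among f/f luminal cells its level was uneven, with a lowest cell at 0, a median of 520 CPM and a highest cell at 4050 CPM.

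Of the 7 luminal members, Hdc and Alox15 had the highest levels in the f/f glands. Hdc was 4.93-fold higher in f/f luminal than in f/f glandular cells (4.28 to 5.71), and Alox15 was 4.18-fold higher (3.55 to 4.94). In f/f glandular cells there were 6.88 Hdc UMIs for each Calb1 UMI (4.79 to 10.2), against 0.752 in f/f luminal cells (0.693 to 0.816) and 1.08 over the pooled non-epithelial f/f classes (0.827 to 1.42). For Alox15 the ratios to Calb1 were 5.47 in f/f glandular cells, 0.506 in f/f luminal cells and 0.670 in the non-epithelial classes. The glandular ratios of both genes lay outside the luminal intervals.

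Acod1 encodes the enzyme that makes itaconate from the citrate cycle intermediate cis-aconitate; it is best known from activated macrophages, and in mouse uterus it is a progesterone-responsive gene of the lining. It had 34 UMIs in d/d epithelium (7.78 CPM, 5.39 to 10.9), 273 in f/f luminal cells (298 CPM, 264 to 336) and 16 in f/f glandular cells (15.5 CPM, 8.89 to 25.2). Acod1 was 38.3-fold lower in d/d epithelium than in f/f luminal cells (26.8 to 56.5). It was present in 46 of 64 f/f luminal cells, with a median of 200 CPM and a highest cell at 2155 CPM. In the f/f glands, 1 of 90 cells held 87.5% of the Acod1 UMIs. The d/d value was 2.00-fold lower than the glandular one (1.03 to 3.72), but without the cell richest in Acod1 in each group the ratio of d/d epithelium to f/f glandular cells was 2.59, which is the other direction, and under a stricter division of luminal and glandular cells it was 3.17.

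Lrp2 encodes megalin, a large endocytic receptor of absorptive epithelia. It had 47 UMIs in d/d epithelium (10.8 CPM, 7.90 to 14.3), 1073 in f/f luminal cells (1172 CPM, 1103 to 1244) and 17 in f/f glandular cells (16.5 CPM, 9.62 to 26.5). All 64 f/f luminal cells had it, from 391 CPM in the lowest cell to 2926 CPM in the highest, against 10 of 138 d/d epithelial and 11 of 90 f/f glandular cells. Lrp2 was 109-fold lower in d/d epithelium than in f/f luminal cells (81.4 to 149). It was 70.9-fold higher in f/f luminal than in f/f glandular cells (44.1 to 122), and from 25.8-fold to 135-fold higher under the alternatives tried. Against f/f glandular cells, d/d epithelium was 1.54-fold lower, with an interval from 0.827 to 2.73 that includes no difference, and the ratio turned to 1.25 under a stricter division of luminal and glandular cells.

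Calb1 encodes calbindin-D28K, a calcium-binding protein of calcium-transporting epithelia. It was the most abundant member in d/d epithelium and in f/f luminal cells, but not in f/f glandular cells. Calb1 had 137 UMIs in d/d epithelium (31.3 CPM, 26.3 to 37.1), 1365 in f/f luminal cells (1491 CPM, 1413 to 1572) and 34 in f/f glandular cells (33.0 CPM, 22.9 to 46.2). Each of the 64 f/f luminal cells had it, from 330 CPM to 4073 CPM with a median of 1430 CPM. In d/d epithelium 17 of 138 cells had it, yet the highest of them reached 2160 CPM, inside the f/f luminal range. Calb1 was 47.6-fold lower in d/d epithelium than in f/f luminal cells (39.9 to 57.1). It was 45.1-fold higher in f/f luminal than in f/f glandular cells (32.1 to 65.4), and d/d epithelium was 1.05-fold below f/f glandular cells (0.702 to 1.54), with a ratio of d/d to f/f glandular cells that turned to 1.12 with TMM scaling.

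Lpar3 encodes a receptor for lysophosphatidic acid, and mice without it show delayed implantation and crowded embryos. It had 17 UMIs in d/d epithelium (3.89 CPM, 2.27 to 6.23), 244 in f/f luminal cells (267 CPM, 234 to 302) and 14 in f/f glandular cells (13.6 CPM, 7.44 to 22.8). The receptor was present in 13 of 138 d/d epithelial, 55 of 64 f/f luminal and 13 of 90 f/f glandular cells. It was 68.5-fold lower in d/d epithelium than in f/f luminal cells (41.9 to 120), and 3.50-fold lower than in f/f glandular cells (1.60 to 7.54).

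Coch encodes cochlin, a secreted matrix protein best known from the inner ear. It had 0 UMIs in d/d epithelium, 140 in f/f luminal cells (153 CPM, 129 to 180) and 0 in f/f glandular cells. With the zeros set to 3 counts over the group, Coch was at least 223-fold lower in d/d epithelium than in f/f luminal cells and at least 52.5-fold higher in f/f luminal than in f/f glandular cells. The count of 0 allows a share of up to 2.17% of d/d epithelial cells and up to 3.33% of f/f glandular cells with a UMI. It was also the luminal member found in the fewest f/f luminal cells, 34 of 64, with a median of 45.1 CPM and a highest cell at 862 CPM.

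Against f/f luminal cells, 7 members reached 20 UMIs in the 2 groups together, and 7 of 7 were at least 2-fold lower in d/d epithelium, where 14.1% of the 10251 genes with as many UMIs were lower and 17.3% were higher. Their median log2 ratio was -6.67, beside 0.02 over those genes. Each of the 7 reached 20 UMIs through the f/f luminal group, so this count describes them and does not support a difference on its own; Il13ra2, Calca and Atp6v0d2 had too few UMIs to enter. Against f/f glandular cells, 4 of 7 were at least 2-fold lower in d/d epithelium (Hdc, Alox15, Lpar3 and Calca), beside 11.1% of 10218 genes lower and 10.8% higher. Their median log2 ratio was -1.81, beside -0.14 over those genes. Calca reached 20 UMIs only through the f/f glandular cells, and Lrp2 and Acod1 only through d/d epithelium. This count and median therefore describe the members only. Within the f/f library, 7 of 8 members were at least 2-fold higher in luminal than in glandular cells, beside 10.8% of 8108 genes higher and 14.2% lower, and Calca was the exception. Here Lrp2, Acod1, Lpar3 and Coch reached 20 UMIs only through the luminal cells and Calca only through the glandular cells, so this count too describes the members only.

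The share of cells with a UMI followed the order of the CPM after each cell was thinned to 5000 UMIs, except for Acod1 in d/d epithelium and f/f glands. Thinning left 126 d/d epithelial, 59 f/f luminal and 84 f/f glandular cells. For Hdc it was 6.35% of d/d epithelial cells, 98.3% of f/f luminal cells and 61.9% of f/f glandular cells. For Alox15 it was 1.59%, 83.1% and 42.9% in the same groups, and for Calb1 4.76%, 100% and 10.7%. Hdc and Alox15 thus kept the pattern of lining first, glands next and d/d epithelium last. The thinned shares of Lrp2 were 4.76% in d/d epithelium, 96.6% in f/f luminal cells and 7.14% in f/f glandular cells. Those of Acod1 were 2.38%, 59.3% and 1.19%, those of Lpar3 1.59%, 67.8% and 3.57%, and those of Coch 0%, 37.3% and 0%, in the same order. For these 4 genes and Calb1, at most 10.7% of thinned cells in d/d epithelium or in f/f glands had a UMI. In stroma-like cells, which should lack the Calb1 and Hdc of the lining, 0.0585% of d/d cells (median 7024.5 UMIs) and 1.69% of f/f cells (median 6601 UMIs) had a Calb1 UMI, and 0.117% of d/d and 1.54% of f/f cells had an Hdc UMI, unthinned. The unthinned shares were 12.3% for Calb1 and 13.8% for Hdc in d/d epithelium, but at a higher median depth of 22308 UMIs. By CPM, Calb1 was at 31.3 in d/d epithelium and 0.0765 in d/d stroma-like cells, and Hdc at 11.0 and 0.153. Both were thus above the d/d stroma-like background, but Hdc was not above every d/d class. It stood at 32.6 CPM in d/d dendritic cell-like cells, and at 6.63 CPM in d/d T cell-like cells with an overlapping interval. Alox15 in d/d epithelium (3.34 to 7.90 CPM) overlapped d/d smooth muscle-like cells (1.95 to 4.38).

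Most of the 7 luminal members were seen in the same f/f luminal cells. The 7 were picked by their UMIs in f/f luminal cells, so the counts per cell describe them and do not support a difference on their own. Detection of several together was not compared with the shares of the single genes. After thinning, at least 4 of the 7 were present in 1 of 126 d/d epithelial cells (0.794%), 58 of 59 f/f luminal cells (98.3%) and 2 of 84 f/f glandular cells (2.38%). The median was 0 members in d/d epithelium, 5 in f/f luminal cells and 1 in f/f glandular cells. Unthinned, 95 of 138 d/d epithelial cells had none of the 7, and the fewest in any f/f luminal cell was 4. In stroma-like cells thinned alike, 0 of 1163 d/d cells and 1 of 3584 f/f cells had at least 4.

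**Figure D2:**
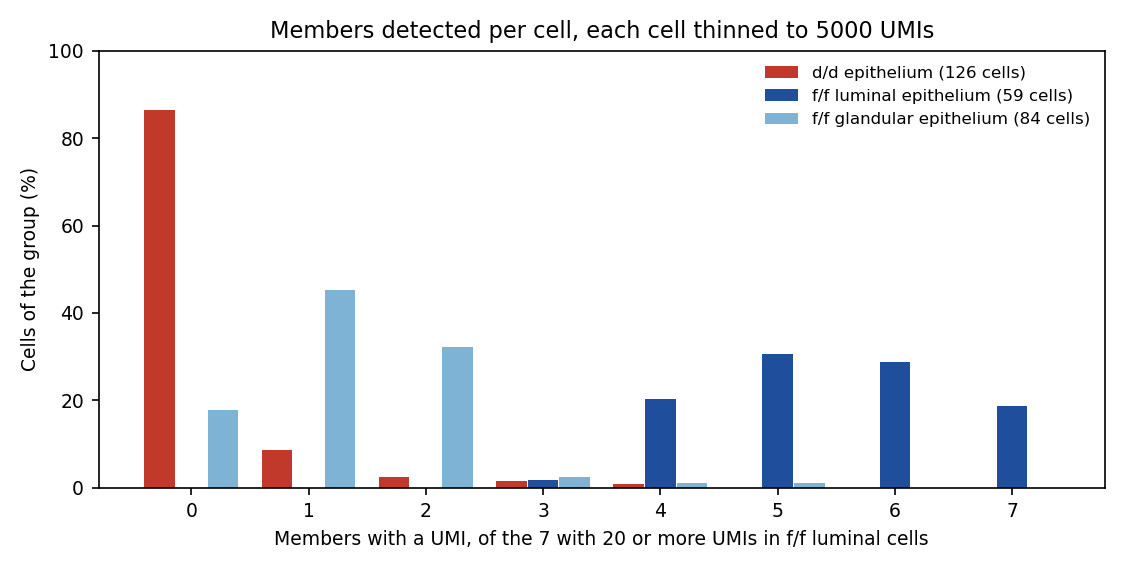
Share of cells (%) by the number of the 7 luminal members with a UMI, after thinning each cell to 5000 UMIs, for d/d epithelium (red, 126 cells), f/f luminal cells (dark blue, 59 cells) and f/f glandular cells (light blue, 84 cells). In d/d epithelium 109 cells had none, while 58 of the 59 f/f luminal cells had at least 4.

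The d/d signal that was left was concentrated in few cells. The 7 members had 306 UMIs in d/d epithelium, of which 163 (53.3%) lay in 3 cells. The 7 d/d cells with luminal markers ahead held 191 of the 306. In those 7 cells, Calb1 stood at 563 CPM (108 UMIs in 6 cells), which was 2.65-fold lower than in f/f luminal cells (2.17 to 3.25), and Acod1 stood at 141 CPM (27 UMIs), 2.12-fold lower (1.42 to 3.27). Lrp2 was 6.24-fold lower, Lpar3 8.52-fold lower and Hdc 15.4-fold lower. Alox15 and Coch had 0 UMIs there, which is at least 48.2-fold and at least 9.77-fold lower. At least 2-fold lower were 7 of 7, beside 17.7% of 6124 genes lower and 8.9% higher; Hdc, Alox15, Lpar3 and Coch reached 20 UMIs only through the f/f luminal cells, so the count is no added support. The makeup of the 7 cells also differed from that of f/f luminal cells. Their luminal panel stood at 2890 CPM, against 6101 CPM in f/f luminal cells, with Wnt7a and Wnt7b at 0, and their glandular panel stood at 495 CPM, against 67.7 CPM. In the clusters of epithelial cells 0 of these 7 cells fell in the luminal cluster, which held 64 of 64 f/f luminal cells. These clusters split by library, however: the luminal cluster had 76 f/f and 0 d/d cells. Of the 77 d/d cells with glandular markers ahead, 1 fell in the glandular cluster. The clusters therefore say nothing on the makeup of the 7 cells, which is read from the panels only. The part of this makeup in the folds above was not tested, and the cells are uneven in depth, from 4335 to 100182 UMIs. Without them, d/d epithelium was 445-fold lower than f/f luminal cells for Lrp2, 215-fold for Calb1 and 178-fold for Acod1, and 6.28-fold, 4.76-fold and 9.28-fold lower than f/f glandular cells for the same 3 genes. The Acod1 value rests on 1 glandular cell: without that cell as well, Acod1 had 7 UMIs in 131 d/d cells and 2 UMIs in 89 f/f glandular cells, a ratio of 0.854 (0.163 to 8.42).

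Summed per cell, the 7 members made up a median of 0 of every 10000 UMIs in d/d epithelial cells, with a highest cell at 30.5. In f/f luminal cells the lowest cell was at 24.9, the median at 53.6 and the highest at 87.4. In f/f glandular cells the median was 3.36 and the highest cell 34.5. The level of the lowest f/f luminal cell was reached by 1 of 138 d/d epithelial cells, 1 of 90 f/f glandular cells and 2 of the 5 f/f cells with neither panel ahead. The plot of markers against members shows that d/d cells with as many luminal marker UMIs as the lowest f/f luminal cells still had fewer member UMIs. Because the 7 members were picked by their UMIs in f/f luminal cells, these sums and the plot describe them only.

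**Figure D3:**
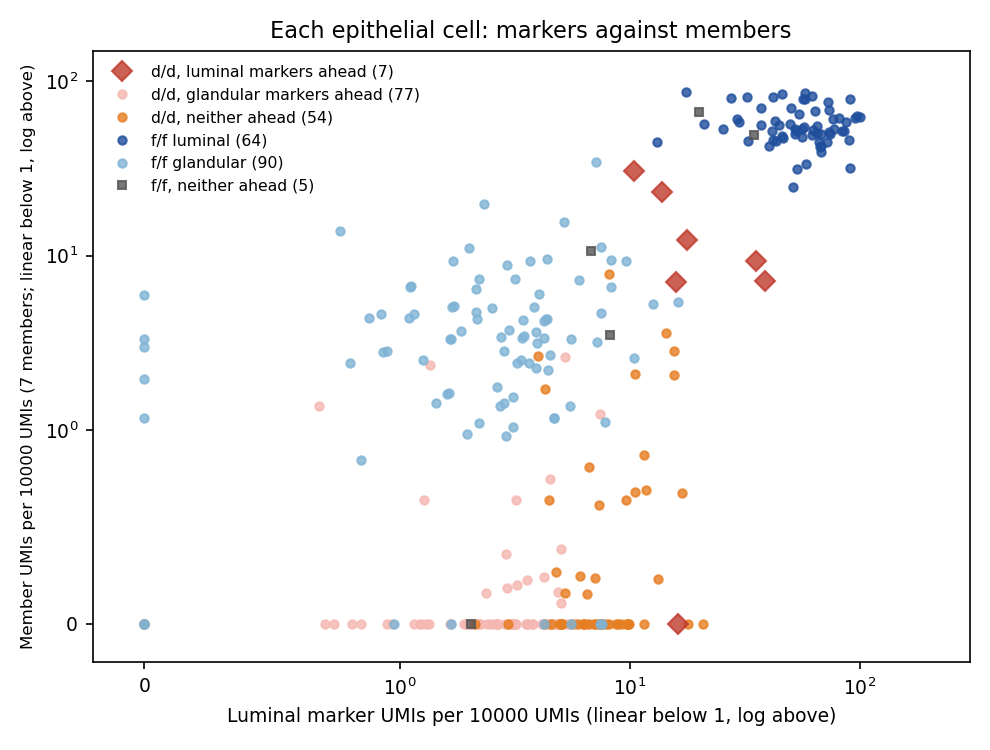
Each point is 1 epithelial cell: luminal marker UMIs per 10000 UMIs (horizontal) against UMIs of the 7 luminal members per 10000 UMIs (vertical), both axes linear below 1 and log above. The 7 d/d cells with luminal markers ahead (red diamonds) lie at or below 30.5 member UMIs per 10000, and the f/f luminal cells lie from 24.9 to 87.4.

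Among the 64 f/f luminal cells the members did not vary together closely. Spearman correlations of CPM between pairs ran from -0.31 for Calb1 with Coch to 0.34 for Alox15 with Coch and for Hdc with Alox15. All values come from the same 64 cells of 1 library, and Lrp2 was lower in cells with more UMIs (Spearman -0.55), so these weak values describe the cells only.

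Outside the epithelium the luminal members were low in f/f cells. Over the 6826 pooled non-epithelial f/f cells, Hdc stood at 2.60 CPM, Alox15 at 1.61, Lrp2 at 2.05, Calb1 at 2.40, Acod1 at 0.682 and Lpar3 at 0.308, which is 0.116% to 0.231% of their f/f luminal CPM. Coch stood at 5.28 CPM, or 3.45% of its f/f luminal CPM. Over the 5797 pooled non-epithelial d/d cells, Hdc stood at 1.27 CPM, Alox15 at 0.960, Lrp2 at 0.0282, Calb1 at 0.621, Acod1 at 2.06, Lpar3 at 0.0565 and Coch at 2.12, so Acod1 was the member of the 7 that was higher than in f/f. Within the stroma-like class, 6 of the 7 members with 20 UMIs in both libraries together (Hdc, Alox15, Lrp2, Calb1, Calca and Coch) were at least 2-fold lower in d/d, beside 9.11% of 13892 genes lower and 9.65% higher. Hdc, Alox15, Lrp2 and Calb1 had 1 to 4 UMIs each in d/d stroma-like cells and 49 to 82 in f/f stroma-like cells. With Calca, these genes reached 20 UMIs only through the f/f cells, so the filter set the direction of the count and nothing is read from it. In cluster 6, the stroma-like cluster that both libraries filled, Coch was the 1 member with 20 UMIs. The heat map of cell groups gives the level in each class.

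**Figure D4:**
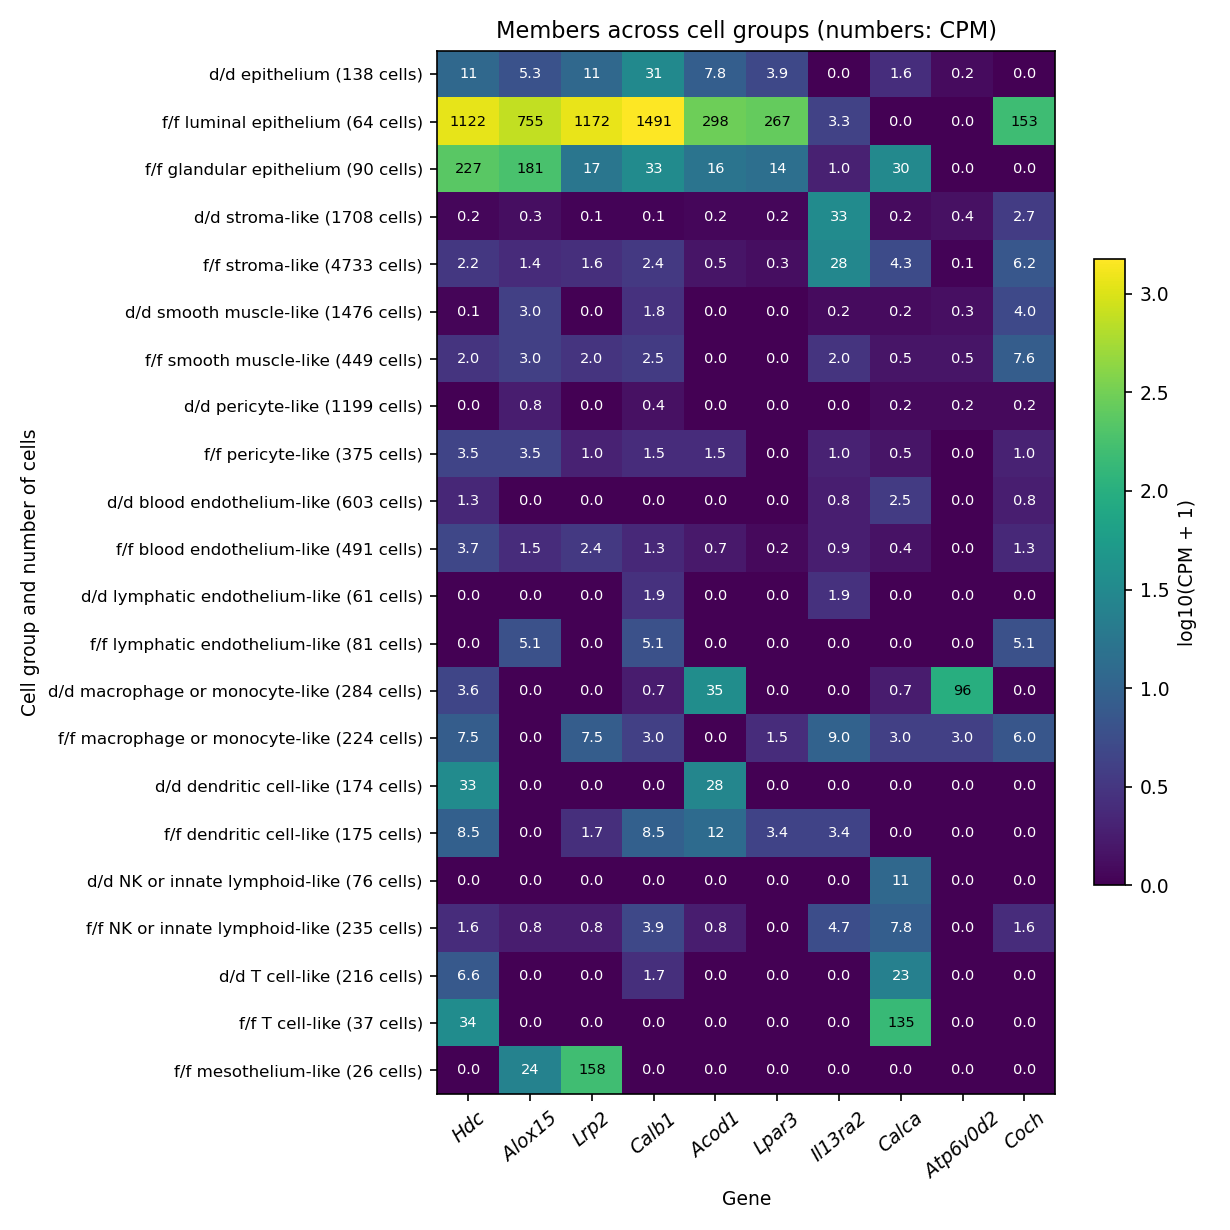
CPM of the 10 genes (columns) in each cell group and library (rows), printed in each field and coloured by log10(CPM + 1). The first 3 rows are the epithelial groups; below them, Il13ra2 is highest in stroma-like cells (32.8 CPM in d/d, 28.2 in f/f), and Atp6v0d2 in d/d macrophage-like cells (95.5 CPM).

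Coch had a second, lower site in the uterine wall. It stood at 2.68 CPM in d/d stroma-like cells (35 UMIs) and 6.17 CPM in f/f stroma-like cells (210 UMIs), a ratio of 0.434 (0.294 to 0.623). In smooth muscle-like cells it stood at 4.03 CPM in d/d and 7.61 CPM in f/f, a ratio of 0.529 (0.282 to 1.04). This class joins 2 clusters, and Coch lay almost only in cluster 7. There it stood at 9.97 CPM in d/d (34 UMIs, 6.91 to 13.9) and 26.9 CPM in f/f (15 UMIs, 15.1 to 44.4). Cluster 2 had 1 Coch UMI in d/d and 0 in f/f. There were 2.20 Coch UMIs per Calb1 UMI in the non-epithelial f/f classes (1.75 to 2.79) and 0.103 in f/f luminal cells. In cluster 6 Coch was at 6.86 CPM in d/d (4.07 to 10.8) and 4.26 CPM in f/f (1.84 to 8.40).

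Lrp2 was also present in mesothelium-like cells, the outer covering of the uterus, where 10 of 26 f/f cells had it at 158 CPM (13 UMIs); no d/d cell fell in this cluster. Alox15 stood at 2.99 CPM in d/d smooth muscle-like cells and 3.04 CPM in f/f ones, with a ratio of 0.983 (0.396 to 2.92).

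Il13ra2 encodes a decoy receptor that binds interleukin 13. In epithelium it had 0 UMIs in d/d cells, 3 in f/f luminal cells and 1 in f/f glandular cells. In stroma-like cells it had 428 UMIs in d/d (32.8 CPM, 29.7 to 36.0) and 961 UMIs in f/f (28.2 CPM, 26.5 to 30.1), in 261 of 1708 d/d cells and 735 of 4733 f/f cells. The d/d to f/f ratio was 1.16 (1.03 to 1.30), below the 2-fold limit. Different clusters held most of the stroma-like class in each library, namely cluster 3 in d/d and clusters 0 and 1 in f/f. Il13ra2 was at 41.2 CPM in d/d cluster 3, 18.3 CPM in f/f cluster 0 and 42.9 CPM in f/f cluster 1, and the dividing cluster 10, led by Top2a, had 33.5 CPM in d/d and 22.1 CPM in f/f. The exception was cluster 6, led by Lum and C3, with 0.763 CPM in d/d and 3.73 CPM in f/f. Thus most stroma-like clusters had this receptor and 1 had little of it in either library.

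Calca encodes calcitonin and, by alternative splicing, the calcitonin gene-related peptide alpha, which these counts do not separate. It had 7 UMIs in d/d epithelium (1.60 CPM, 0.644 to 3.30), 0 in f/f luminal cells and 31 in f/f glandular cells (30.1 CPM, 20.5 to 42.8). It was present in 3 of 138 d/d epithelial cells, 0 of 64 f/f luminal cells and 18 of 90 f/f glandular cells. Calca was 18.8-fold lower in d/d epithelium than in f/f glandular cells (8.13 to 50.6), and at least 9.19-fold lower in f/f luminal than in f/f glandular cells. In stroma-like cells it stood at 0.230 CPM in d/d (3 UMIs) and 4.26 CPM in f/f (145 UMIs), a ratio of 0.0539 (0.0110 to 0.161). It was unevenly spread in the f/f stroma, with 6.18 CPM in cluster 0, 2.03 CPM in cluster 1 and 7.76 CPM in cluster 10. In cluster 6 Calca had 2 UMIs in 582 d/d cells (0.763 CPM) and 0 UMIs in 393 f/f cells, both under the floor of 3 counts, so the lower d/d value of the class was not detectable there. T cell-like cells had 14 UMIs in 6 of 216 d/d cells (23.2 CPM) and 8 UMIs in 4 of 37 f/f cells (135 CPM).

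Atp6v0d2 encodes a V0 subunit of the proton pump that acidifies lysosomes, in a form known from osteoclasts and macrophages. It had 1 UMI in d/d epithelium, 0 in f/f luminal cells and 0 in f/f glandular cells. In macrophage-like cells it had 132 UMIs in 34 of 284 d/d cells (95.5 CPM, 79.9 to 113) and 2 UMIs in f/f cells (3.0 CPM). The ratio of d/d to f/f was 31.8, with an interval from 8.63 to 265 because the f/f count was 2. The makeup of the class differed between the libraries. Its stroma panel stood at 449 CPM in d/d and 3208 CPM in f/f, and its macrophage panel at 16424 and 9302 CPM. The part of this makeup in the ratio was not tested. The f/f class joins cluster 9 with cluster 19, which has 48 f/f cells and no d/d cell. In cluster 9, which both libraries filled, Atp6v0d2 stood at 95.5 CPM in d/d and 5.53 CPM in f/f, a ratio of 17.3 (4.69 to 144). In d/d, 1 cell held 13 of the 132 UMIs.

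**Figure D5:**
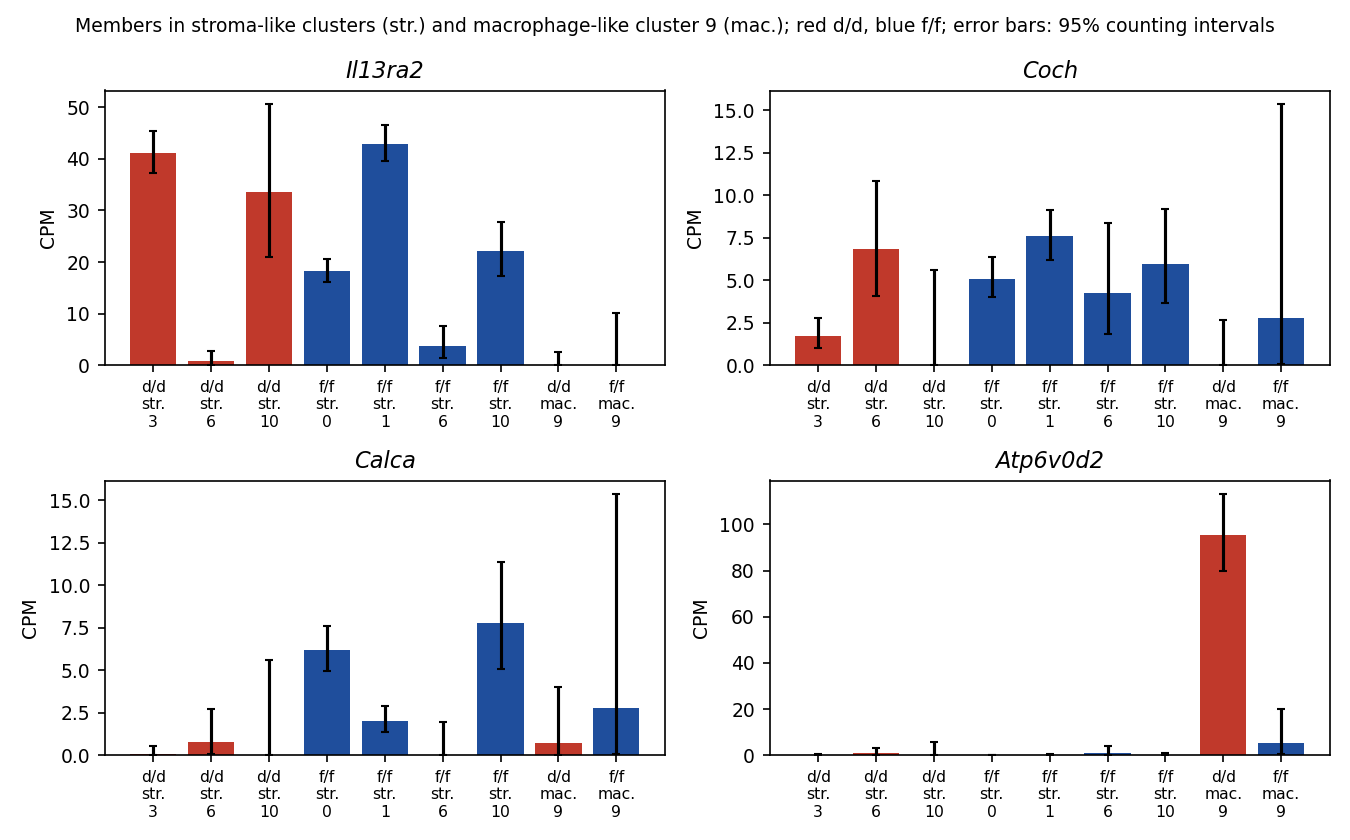
CPM of Il13ra2, Coch, Calca and Atp6v0d2 in stroma-like clusters (str.) and in macrophage-like cluster 9 (mac.), d/d in red and f/f in blue, with 95% counting intervals. Il13ra2 is low only in stroma-like cluster 6 among the stroma-like clusters shown, and the d/d macrophage-like bar of Atp6v0d2 stands at 95.5 CPM.

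Acod1 and Hdc also had immune sites. In macrophage-like cells Acod1 had 48 UMIs in 28 of 284 d/d cells (34.7 CPM, 25.6 to 46.1) and 0 of 665849 UMIs in f/f, which is at least 7.71-fold higher in d/d; in cluster 9 alone, with 0 of 361981 f/f UMIs, it is at least 4.19-fold higher. The median depth of these cells was 4505 UMIs in d/d and 2028 in f/f, and their stroma and macrophage panels differed as given for Atp6v0d2. After thinning to 5000 UMIs, 12 of 121 d/d cells and 0 of 31 f/f cells had an Acod1 UMI. Acod1 and Atp6v0d2 were the 2 members with 20 UMIs in this class, and 2 of 2 were at least 2-fold higher in d/d, beside 8.88% of 8051 genes higher and 19.5% lower; both reached 20 UMIs only through the d/d cells, so nothing is read from this count. In dendritic cell-like cells, Hdc had 27 UMIs in 12 of 174 d/d cells (32.6 CPM) and 5 UMIs in f/f cells (8.47 CPM), a ratio of 3.86 (1.46 to 12.8), and Acod1 had 27.8 CPM in d/d and 11.9 CPM in f/f, a ratio of 2.35 (0.975 to 6.48), with the 7 f/f UMIs in 1 cell. After thinning to 5000 UMIs the order of the Hdc shares turned, with 2 of 74 d/d and 2 of 28 f/f dendritic cell-like cells. There, 2 of 2 were at least 2-fold higher in d/d, beside 6.23% of 6183 genes higher and 14.4% lower, again with 20 UMIs reached only through the d/d cells. Hdc was not higher in the other immune classes: it had 5 UMIs in d/d (3.62 CPM) and 5 in f/f (7.51 CPM) macrophage-like cells, and 4 UMIs in d/d (6.63 CPM) and 2 in f/f (33.8 CPM) T cell-like cells.

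The partner genes of each member were taken from lists of its pathway. The counts below stand beside the shares over all genes with at least 20 UMIs. Against f/f luminal cells 14.1% of 10251 genes were at least 2-fold lower in d/d epithelium and 17.3% higher. Against f/f glandular cells 11.1% of 10218 genes were lower and 10.8% higher. The lists are short, and a count near these shares is not a result about the list. Of the histamine genes, 2 of 8 reached 20 UMIs against f/f luminal cells and 1 was higher in d/d epithelium. This was Aoc1, which degrades histamine, at 11.4 CPM in d/d epithelium, 3.28 CPM in f/f luminal cells and 2.92 CPM in f/f glandular cells; with 3 UMIs in each f/f group its log2 ratio to luminal cells was 1.80 (0.17 to 4.13). Of the lipoxygenase and arachidonate genes, 3 of 6 were lower in d/d epithelium than in f/f luminal cells and 0 were higher. They were Alox12e (6.54-fold lower), Alox12 (5.25-fold) and Pla2g4a (5.09-fold), the phospholipase that releases arachidonic acid. Gpx4, which reduces lipid hydroperoxides, was at 388 CPM in d/d epithelium, 292 CPM in f/f luminal cells and 171 CPM in f/f glandular cells.

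Of the endocytic partners of Lrp2, 3 of 6 were lower in d/d epithelium than in f/f luminal cells and 2 were higher. Those lower were the adaptor Dab2 (11.9-fold), the megalin chaperone Lrpap1 (6.55-fold) and the related receptor Lrp1 (7.96-fold). Lrpap1 stood at 54.2 CPM in d/d epithelium, 355 CPM in f/f luminal cells and 46.6 CPM in f/f glandular cells; like Lrp2 it was highest in f/f luminal cells. Of the calcium genes, 1 of 5 was lower and 1 of 5 higher. The lower one was S100g, the small calbindin, at 375 CPM in d/d epithelium, 5910 CPM in f/f luminal cells and 9194 CPM in f/f glandular cells, so unlike Calb1 it was high in the glands. The calcium pump Atp2b4 was 3.51-fold higher in d/d epithelium than in f/f luminal cells.

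Of the citrate and itaconate genes, 2 of 9 were lower in d/d epithelium than in f/f luminal cells, Cs (2.17-fold) and Aco1 (2.18-fold), and 2 of 9 were higher, Idh3a (3.72-fold) and the interferon regulator Irf1 (3.54-fold). Of the lysophosphatidic acid genes, 3 of 8 were lower and 2 of 8 were higher. Those lower were the prostaglandin synthases Ptgs2 (12.3-fold) and Ptgs1 (9.15-fold) and the lipid phosphatase Plpp3 (6.75-fold). Lpar1, another receptor of the same lipid, was 2.60-fold higher in d/d epithelium than in f/f luminal cells. Against f/f glandular cells, 0 of 8 were lower and 2 of 8 higher; Ptgs2 had 33 UMIs in d/d epithelium and 1 UMI in f/f glandular cells, a log2 ratio of 2.96 (0.38 to 8.30).

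Of the interleukin 4 and 13 genes, 1 of 5 was lower, Tyk2 (2.73-fold), and 1 of 5 higher, the signalling receptor Il13ra1 (9.18-fold), which stood at 60.2 CPM in d/d epithelium, 6.55 CPM in f/f luminal cells and 49.6 CPM in f/f glandular cells. Of the calcitonin family, 0 of 3 were lower and 1 of 3 higher, adrenomedullin (Adm), at 67.3 CPM in d/d epithelium, 22.9 CPM in f/f luminal cells and 234 CPM in f/f glandular cells. Adm was 3.48-fold lower in d/d epithelium than in f/f glandular cells, the same direction as Calca. Of the V-ATPase genes, 5 of 16 were lower and 0 of 16 higher, among them Atp6v0a1 (3.47-fold), Atp6v1d (2.79-fold) and Atp6v0e (2.11-fold). Their median log2 ratio was -0.60, beside 0.02 over all genes with at least 20 UMIs.

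Of the progesterone and LIF response genes of the receptive lining, 6 of 15 were lower in d/d epithelium than in f/f luminal cells and 4 of 15 were higher. Those lower included Cyp26a1, a retinoic acid hydroxylase, with 5 UMIs in d/d epithelium and 37 in f/f luminal cells (35.3-fold), Fgfr2 (5.48-fold) and Socs3 (3.01-fold), a feedback inhibitor of cytokine signalling. Those higher were Lif, Klf15, Esr1 and Il6st. Esr1 stood at 419 CPM in d/d epithelium and 139 CPM in f/f luminal cells, and Il6st at 271 and 91.8 CPM. Klf15 stood at 9.38 and 2.18 CPM in the same groups, with 2 UMIs in f/f luminal cells. Lif, the cytokine itself, stood at 30.4 CPM in d/d epithelium, 2.18 CPM in f/f luminal cells (2 UMIs) and 155 CPM in f/f glandular cells. Lif was thus higher in d/d epithelium than in f/f luminal cells, and 5.11-fold lower than in the f/f glands (4.03 to 6.48).

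The gene most like each member was found by Pearson correlation of log2(CPM + 10) over 20 cell groups with at least 50 cells. The candidates were 5312 genes with at least 50 UMIs in f/f epithelium. Genes confined to other classes could therefore not be named. The groups share 2 libraries and differ in depth, so these values are a description. For Lrp2 it was Them5 (0.991), for Lpar3 it was Lrp2 (0.991), for Calb1 it was Slc1a1 (0.989), and for Alox15 it was Ovgp1, an oviductal glycoprotein (0.986). For Hdc it was the noncoding gene Far2os1 (0.957), and for Coch the noncoding gene 9530059O14Rik (0.957), which was likewise at 0 in d/d epithelium and in f/f glandular cells. Acod1 was less closely matched (Atp6v1d, 0.870). Of the members that were not luminal, Il13ra2 was most like Mfap5, a stromal matrix gene (0.913), Calca like Sidt1 (0.880) and Atp6v0d2 like Mdm2 (0.865). These matches use the same groups, epithelium included, and the same candidates.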

How the data were processed

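Whole uterus was dissociated to single cells and libraries were made with the 10x 3' v3 kit, per the labels' protocols. The authors deposited raw UMI counts per gene and barcode; the submitters' processing notes name Cell Ranger 3.0.1 and mm10, while the matrix headers name cellranger 6.0.1. Barcodes were kept from 1000 UMIs and 500 genes upward where mitochondrial UMIs did not exceed 20%. Doublets were scored with Scrublet in scanpy 1.11.5 and the top 0.8% per 1000 barcodes were removed (355 in d/d, 533 in f/f); its automatic threshold marked 400 in d/d and 0 in f/f.

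Epithelial cells had at least 10 UMIs of 11 epithelial markers and at least 3 times those of every other panel; 12 d/d and 53 f/f mixed cells were left out. Luminal and glandular cells had at least 5 UMIs of their panel and at least 3 times the other. These limits were set after the data were seen. Other classes are Leiden clusters (leidenalg 0.10.2, resolution 1) made without the 10 genes, named only from markers, and kept to cells with under 10 epithelial marker UMIs.

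UMIs were summed per group and divided by the group total to give CPM. Intervals are exact Poisson for CPM, exact Clopper-Pearson for shares and conditional exact for ratios. Genes with 20 or more UMIs over a pair of groups entered a comparison, and a ratio of 2-fold or more was counted; a 0 was set to 3 counts for a bound. No p-value was computed, since each genotype is 1 library. The intervals were tested on simulated Poisson counts, the error model that they assume. Uneven spread of UMIs between cells was not simulated, so that test does not cover it. All 10 genes are named in each comparison. Partner genes are named where a ratio was at least 2-fold with an interval that leaves out 1, up to 4 per list. In the progesterone and LIF list, all 4 genes that were higher than in f/f luminal cells are named as well. The 10 genes, the lists and the tests were chosen with earlier results of these data known. Promoters are from RefSeq (GRCm38.p6).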

Additional observations from a re-analysis of the deposited data

Results flagged for a closer look

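By CPM, Hdc was 3.86 times as high in d/d as in f/f dendritic cell-like cells, while the ratio of d/d epithelium to all f/f epithelium was 0.0168. Acod1 was at least 7.71-fold higher in d/d than in f/f macrophage-like cells, and at least 4.19-fold higher in the macrophage-like cluster that both libraries filled, while the same epithelial ratio was 0.0528. Both stand out because the direction differs between cell classes, and the differences between classes were not tested.

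A cluster of 45 f/f cells that no marker panel named held luminal members, with Hdc at 78.3 CPM, Lrp2 at 78.3 CPM and Calb1 at 186 CPM. Hdc and Calb1 were above every named non-epithelial f/f class, where the highest values were 33.8 CPM and 8.47 CPM, while Lrp2 was below the 158 CPM of mesothelium-like cells. Its median depth was 1541 UMIs per cell, its leading genes included Fxyd4, Wfdc2, Calb1 and S100g, and its stroma panel stood at 6352 CPM. No comparison uses these cells.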

How the results depend on the processing

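The direction of each ratio held in 105 of 105 values of d/d epithelium against f/f luminal cells and in 94 of 94 values of f/f luminal against f/f glandular cells, over the alternatives tried for cell filters, gates, clusters, doublets, depth and scaling. These counts describe the members only. In the main setting, Lpar3 and Coch entered the first comparison only through f/f luminal cells. Within f/f, Lrp2, Acod1, Lpar3, Coch and Calca entered only through the group where they were higher. The main Coch ratios were bounds from 0 UMIs in d/d epithelium and in f/f glandular cells. Not all of the alternatives could turn a ratio. The limit of 50 UMIs in both groups only changes which genes are counted, and a minimum of 2000 UMIs per cell left every ratio as it was. Against f/f glandular cells it held in 83 of 91; the 8 that turned were 5 values of Calb1 (1.01 to 1.19), 2 of Acod1 (2.59 and 3.17) and 1 of Lrp2 (1.25). The count of 4 members lower than in f/f glandular cells became 2 (of 3 counted) with cells thinned to 5000 UMIs, 2 (of 5 counted) with at least 50 UMIs in both groups, and 7 without the 7 d/d cells with luminal markers ahead, or 6 (of 6 counted) when the f/f glandular cell richest in Acod1 was also left out. The counts of 7 against f/f luminal cells and of 7 between f/f luminal and f/f glandular cells stayed at 7, except 8 when all f/f epithelium took the place of the luminal cells. Fold sizes moved more: against f/f luminal cells the Calb1 ratio ranged from 0.00465 to 0.0431 and the Hdc ratio from 0.00471 to 0.0168, over alternatives that keep more than the 7 luminal-marker cells. Over the same alternatives the Alox15 ratio ranged from 0.00152 to 0.0116 and the Coch value from 0.00157 to 0.0287. Over the genes that entered the comparison with f/f luminal cells, the median log2 ratio was 0.02. It was 0.15 with TMM scaling (edgeR 4.0.16) and 0.22 without mitochondrial and ribosomal protein genes. Under these 2 settings no member changed direction against f/f luminal cells. In macrophage-like cells the 2 ratios that were high in d/d were 17.3 for Atp6v0d2 and at least 4.19 for Acod1 in cluster 9 alone. The settings that leave out or keep only the 7 d/d cells or that glandular cell, the use of cluster 9 alone, and the division without Fxyd4 and Spink1, were chosen after seeing the data. Il13ra2, Calca and Atp6v0d2 had too few UMIs in d/d epithelium and f/f luminal cells together to enter the comparison of these groups. No paired analysis was possible because each genotype has 1 library.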
